A study of Pimephales promelas with 191 samples.

Results

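The comparison described here set the livers of unexposed adult male fathead minnows (Pimephales promelas) at 96 h against those at 24 h. Its members were the 12 control libraries collected at 24 h and the 12 collected at 96 h, taken by their titles. These are 24 libraries of a series of 16 groups, of which 15 hold 12 libraries and 1, guanylurea at 24 h, holds 11. The series crossed 4 collection times (6, 24, 48 and 96 h) with no exposure (the control), exposure to 41 µg/L of the antidiabetic drug metformin, exposure to 100 µg/L of its microbial product guanylurea, and exposure to both together. The control libraries carried no test compound, no transgene and no genetic change that the labels name. Whether each library is a separate fish, and which fish shared a tank, is not in the labels, so the p-values cover only the spread between these samples, and this may be technical.

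The fathead minnow is a small North American cyprinid used in aquatic toxicology. Its liver stores and releases fuel, makes bile and secretes most plasma proteins, and in females it makes the egg yolk precursor vitellogenin, a common marker of estrogen exposure when it appears in males. Liver transcripts are known to follow feeding, time of day and handling stress, which makes unexposed fish over time a measure of how far a liver moves with no compound. The collections at 24 h and 96 h lie whole days apart, so the nominal hour of day was matched, which is not so for a comparison with 6 h. Collection time is also a collection occasion, and days in the test, feeding and handling cannot be told apart.

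Of the 26150 gene identifiers in the table, 0 matched a gene in the RefSeq table of the organism, and neither deposited table pairs an identifier with a gene name. The labelled tissue could therefore not be checked against liver markers, and genes are grouped by whether and how they changed. Of single genes, 4 identifiers are given, the 2 that rose and the 2 that fell under the rule stated with the processing.

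The libraries of both times were similar in size and makeup. Totals ran from 15.5 to 21.9 M counts (M, mega) at 24 h and from 14.04 to 25.8 M at 96 h, with means of 19.1 ± 1.83 and 20.6 ± 3.49 M (SD, n = 12 each). The mean number of genes with a count was 19843 ± 399 at 24 h and 19950 ± 386 at 96 h. The 10 most abundant genes held 31.5% ± 3.68 and 32.1% ± 4.34 of counts. The measure that came nearest to a difference was agreement, the median correlation of a library's log2 CPM (counts scaled to the same total per library) with the rest of its group. It was 0.917 ± 0.00505 at 24 h and 0.908 ± 0.0123 at 96 h (two-sided permutation test, p = 0.0115, adjusted p = 0.0576 over 5 measures). Each value is computed from the other libraries of its group, so the values of a group are not independent. The 96 h libraries numbered 2 and 4 were also singled out by low agreement, so nothing is read from this p-value. The 96 h libraries numbered 2 and 4 were at 0.890 and 0.879, below the lowest of the other 10 at 96 h (0.907) and the lowest at 24 h (0.905). Controls at the other times held values this low too, at 0.878 in the 6 h library numbered 3 and at 0.889, 0.890 and 0.860 in the 48 h libraries numbered 1, 6 and 12. The main results below are therefore given with and without them.

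Between 24 h and 96 h, 143 of 16322 genes changed in control livers, which is 0.876% of those tested (called at a Benjamini-Hochberg adjusted p under 0.05 in the quasi-likelihood test of edgeR, as are all calls below that name no other tool). Of these, 96 rose (0.588% of genes tested) and 47 fell (0.288%). The risen genes changed by a median of 1.54 on the log2 scale (quartiles 0.77 to 2.41), and 64 of the 96 rose by 2-fold or more. The fallen genes changed by a median of −0.62 (quartiles −0.79 to −0.49), and 9 of the 47 fell by 2-fold or more. The median of all tested genes was 0.02. Without the 96 h libraries numbered 2 and 4 the medians of these risen and fallen genes were 0.60 and −0.55. The rises and falls were then close in median size, with the rises still slightly larger. In whole liver, fewer cells of a type and less RNA per cell cannot be told apart. At an unadjusted p under 0.05 stood 2514 genes, or 15.4% of those tested.

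Without the 96 h libraries numbered 2 and 4, the same test called 3 genes, 2 higher and 1 lower, out of 16540 (0.0181%), and 1956 genes (11.8%) had an unadjusted p under 0.05. Only 1 of the 3 was among the 143. Other fits kept more of their calls, but each called fewer genes than with all libraries. DESeq2 went from 358 to 116 genes, of which 59 were among the 143. Limma voom went from 175 to 70, of which 43 were, with 16540 genes tested without the pair by either tool. A fit of the 24 h and 96 h control libraries alone went from 183 to 93 (15243 tested without the pair), with 35 among the 143. A fit of all libraries of the series went from 649 to 66 (18232 tested without the pair), with 33 among the 143. In at least 4 of these 5 fits 29 genes were called, and 22 of the 29 were among the 143. All 5 fits share the remaining control libraries of 24 h and 96 h, which also gave the 143, so nothing is read from this overlap.

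**Figure D1:**
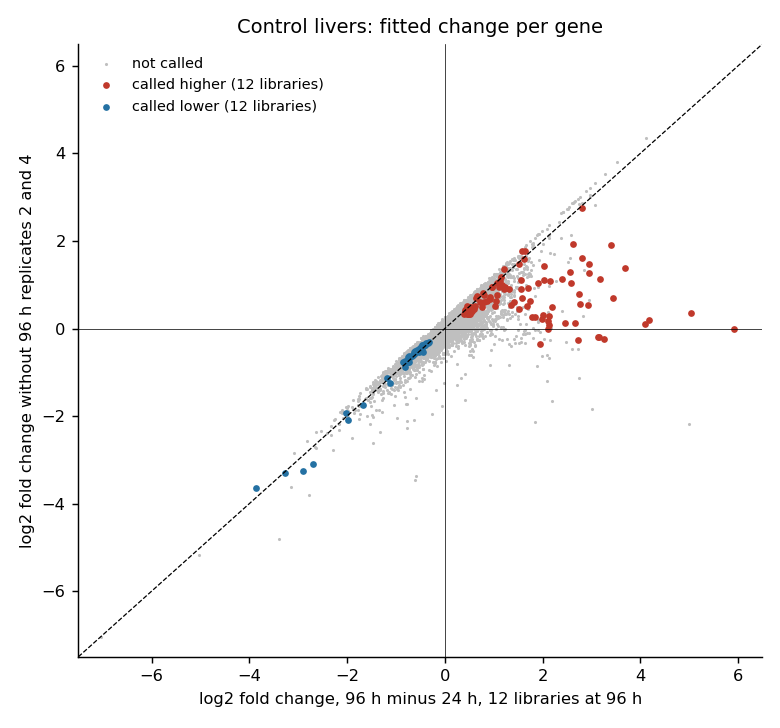
Each point is a gene, with its fitted log2 fold change from 24 h to 96 h in control livers over 12 libraries at 96 h on the x axis and without the 96 h libraries numbered 2 and 4 on the y axis. The 47 lower genes (blue) lie along the dashed line of equal change, whereas many of the 96 higher genes (red) drop towards 0 when those libraries are left out.

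Without the 2 libraries the fitted changes of the fallen genes moved less than those of the risen genes. For the 47 fallen genes the median went from −0.62 to −0.55, all 47 kept their sign, and 0 lost more than 50% of their change. Of the 47, 0 were called by edgeR without the pair, 47 had an unadjusted p under 0.05, and DESeq2 called 30 and limma voom 23. For the 96 risen genes the median went from 1.54 to 0.60, 89 kept their sign, and 36 lost more than 50% of their change. Of the 96, 1 was called by edgeR without the pair, 69 had an unadjusted p under 0.05 in the same direction, and DESeq2 called 29 and limma voom 20. Among all 16322 tested genes, 1925 had such a p in the same direction as with all libraries. DESeq2 called 116 and limma voom 70 of 16540 genes without the pair. The fallen and risen genes were called from these same libraries, so nothing is read from how many passed again. Library 4 was the highest of the 12 libraries at 96 h for 50 of the 96 risen genes and library 2 for 25. Over all tested genes these shares were 18.9% for library 4 and 11.1% for library 2. The fallen genes leaned towards these libraries too. Library 4 was the lowest of the 12 for 20 of the 47 fallen genes and library 2 for 8, where over all tested genes they were the lowest in 19.9% and 10.5%.

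**Figure D2:**
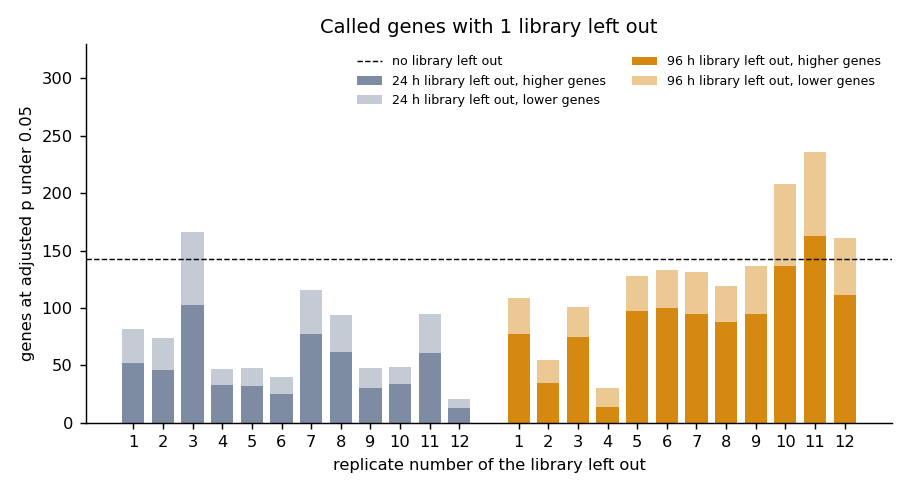
Bars give the number of genes called between 24 h and 96 h in control livers when 1 library is left out, by its replicate number, with lower genes (pale) stacked on higher genes (dark). The dashed line marks the 143 genes called with every library, and the counts run from 21 without the 24 h library numbered 12 to 236 without the 96 h library numbered 11.

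The count of called genes also moved with single libraries of both times. It ran from 21 to 236 when each of the 24 libraries was left out in turn. Of the 24 counts, 13 differed from the full count by more than 1.5-fold, all of them below it except the 236. The lowest counts were 21 without the 24 h library numbered 12, 30 without the 96 h library numbered 4 and 40 without the 24 h library numbered 6. Counts of 47, 48, 48 and 49 came without the 24 h libraries numbered 4, 5, 9 and 10, and 55 without the 96 h library numbered 2. Leaving out the 24 h libraries numbered 1, 2, 8 and 11 gave 82, 74, 94 and 95, and leaving out the 96 h library numbered 11 gave 236. With every library in place, the 95% confidence interval of the change lay within 2-fold for 73.0% of tested genes and within 1.5-fold for 41.7%.

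The risen genes fell into classes by how much of their signal at 96 h came from libraries 2 and 4, a split made after the values were seen. The split itself bears on how far the change falls without the pair, so the values by class are a description. In 17 of the 96 genes library 2 alone held over 50% of the summed CPM of the 12 libraries, in 21 library 4 alone did, and in 5 both together did. In the 17 genes of library 2 the median change was 2.46 with all libraries and 0.11 without the pair, and 1 of the 17 had at least 10 of 12 libraries above the 24 h median. For 16 of these 17 genes, the highest library of the whole series, exposed livers included, was library 2 or 4. In the 21 genes of library 4 the median went from 2.74 to 1.03, and all 21 stayed above 0. Here 11 of the 21 had at least 10 of 12 libraries above the 24 h median. For 20 of the 21, the highest library of the whole series was again library 2 or 4. No share over all tested genes is given for the highest library of the series, so nothing is read from these counts.

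The remaining 53 risen genes changed by a median of 0.80 with all libraries and 0.66 without the pair, all 53 stayed above 0, and 48 of 53 had at least 10 of 12 libraries above the 24 h median. Their expression was higher too, at a median log2 CPM of 3.41, compared with 1.86 in the 43 genes in which libraries 2 and 4 held over 50%. For 23 of the 53 genes, library 2 or 4 was still the highest library of the whole series, again with no share over all tested genes to set beside it. In all, 64 of the 96 risen genes had at least 10 of 12 libraries above the 24 h median, where 11.3% of tested genes did. All 47 fallen genes had at least 10 of 12 libraries below it, where 11.9% of tested genes did. The genes were called from these same libraries, so nothing is read from these shares. In 0 tested genes did all 12 libraries at 96 h lie above or below all 12 at 24 h (0%), so the ranges of the times overlapped in every tested gene.

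FMg021484 is the gene that rose both with and without libraries 2 and 4. At 24 h its 12 libraries ran from 20.7 to 40.9 CPM with a median of 30.3, and at 96 h from 11.1 to 63.9 CPM with a median of 52.2. At 96 h, 10 of 12 libraries lay above the highest 24 h library, while library 4 was the lowest of both groups. The fitted log2 change was 0.66 (SE 0.163, edgeR adjusted p = 0.0403), and 0.74 without libraries 2 and 4 (SE 0.132, adjusted p = 0.00854). At 6 h its control libraries ran from 21.6 to 52.8 CPM with a median of 33.6, and at 48 h from 23.9 to 46.2 CPM with a median of 32.8, so the ranges at both times overlapped that at 96 h. The call lay near its threshold. It was lost on leaving out any 1 of the 24 h libraries numbered 2, 4, 5, 6, 9, 10, 11 and 12 or the 96 h libraries numbered 1, 2 and 9, with edgeR adjusted p from 0.0501 to 0.0769 and the change between 0.62 and 0.67.

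FMg021418 had the smallest p among the risen genes and a fitted log2 change of 5.92 (SE 1.08, edgeR adjusted p = 0.0143). Its 12 libraries at 24 h ran from 0.117 to 1.21 CPM with a median of 0.397, and those at 96 h from 0.0529 to 346 CPM with a median of 0.521. A single library, number 2, held the 346 CPM (7665 counts), which was 98.6% of the summed CPM at 96 h, and the next highest held 0.739 CPM. The other libraries of both times overlapped, and without library 2 the fitted log2 change was −0.05 (adjusted p = 0.973). Exposed livers also showed single high libraries, at 80.0 CPM in guanylurea at 24 h and 21.8 CPM in metformin at 96 h, while the group medians of those groups were 0.602 and 0.700 CPM. FMg021418 was thus low in most of these livers and very high in single ones.

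FMg018823 fell, with 24 h libraries from 5.28 to 10.7 CPM (median 6.24) and 96 h libraries from 2.295 to 5.76 CPM (median 4.15). All 12 libraries at 96 h lay below the 24 h median, and 10 of them below the lowest 24 h library. The fitted log2 change was −0.75 (SE 0.141, edgeR adjusted p = 0.0143), and −0.65 without libraries 2 and 4, where adjusted p was 0.0597. FMg018629, an abundant transcript with only 2.82% of tested genes above it, fell from a median of 273 CPM (231 to 366) at 24 h to 171 CPM (126 to 251) at 96 h. All 12 libraries at 96 h were below the 24 h median, and 11 below the lowest 24 h library. Its fitted log2 change was −0.71 (SE 0.145, edgeR adjusted p = 0.0269), and −0.65 without libraries 2 and 4, where adjusted p was 0.0712. For both genes the groups thus overlapped by few libraries, and the loss of the pair moved the size little but ended the call in this fit. DESeq2 still called both without the pair (adjusted p = 0.00558 and 0.0106).

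**Figure D3:**
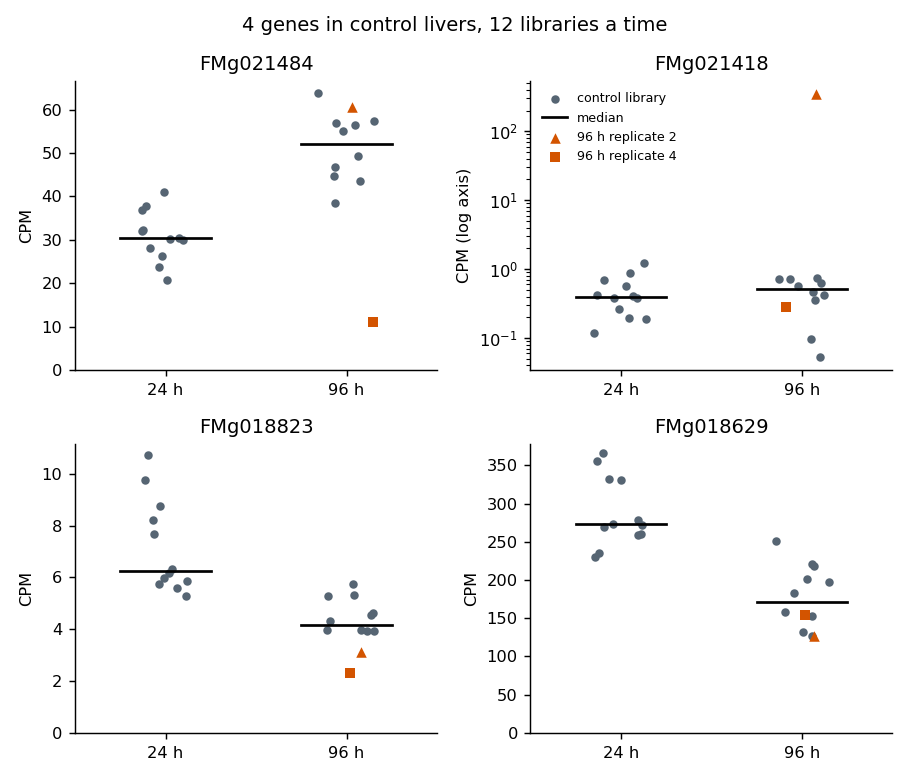
Points are CPM values of FMg021484, FMg021418, FMg018823 and FMg018629 in the 12 control libraries at 24 h and the 12 at 96 h, with the median as a line and the 96 h libraries numbered 2 (triangle) and 4 (square) marked. The FMg021418 axis is logarithmic and shows library 2 at 346 CPM against 0.739 CPM in the next highest, while most 96 h libraries of FMg018823 and FMg018629 lie below every 24 h library.

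Levels at the other control times were set beside these, on the scale of mean log2 CPM minus the 24 h mean. The 96 risen genes had a median of 0.14 in the 6 h controls, 0.20 in those of 48 h and 0.77 in those of 96 h (0.53 without libraries 2 and 4). The 47 fallen genes had medians of −0.14, −0.24 and −0.61 in the same order (the last −0.53 without the pair). These differences share the 24 h libraries on which the genes were chosen, so deviations of those libraries enter all of them. Taken library by library, the median over the risen genes at 96 h ran from 0.22 to 1.48, with library 4 at 1.48 and library 2 at 1.22 above all others. The median over the fallen genes ran from −0.97 to −0.38, with library 4 the lowest. Both sets of genes were called from these same libraries, so these positions are a description.

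The called genes spanned the range of abundance. With the tested genes ranked into 4 equal bins by expression, 15 genes rose and 7 fell in the lowest bin, 35 and 14 in the second, 24 and 11 in the third and 22 and 15 in the highest. Precision differed across it, with a median SE of the log2 fold change of 0.372 in the lowest bin and 0.162 in the highest. Among the 100 most abundant genes, which carry most counts of a liver library, 0 rose and 1 fell (0.876% of all tested genes were called), 20 had an unadjusted p under 0.05 (15.4% of all tested genes and 19.4% of the highest bin), and the median change was −0.09. These counts lie near the shares over all genes.

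The exposed livers of the same times gave a reading in libraries that the control comparison did not use. Averaged over metformin, guanylurea and the mixture, 2229 of 18145 genes changed between 24 h and 96 h (12.3%), of which 1191 rose (6.56%) and 1038 fell (5.72%). These were tested in 1 edgeR fit of all libraries, with 71 exposed libraries at the 2 times. The exposed contrast uses no control library, though all groups share 1 estimate of the spread. In the same fit the control change was called in 649 genes, of which 458 were higher (2.52%) and the others lower (1.05%), and in 66 genes without control libraries 2 and 4. Single exposures, with 12 libraries a time or 11 for guanylurea at 24 h, gave 98 calls for metformin, 178 for guanylurea and 705 for the mixture. The exposed mean rests on 71 libraries and the control change on 24, so the size of the response is not read from 2229 against 649.

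In control livers the fitted changes of genes chosen in exposed livers lay mostly on the same side of 0, and few of these genes passed the test there. The control test rests on 24 libraries at the 2 times, against 71 exposed libraries. The 1191 genes that rose in exposed livers had a median control change of 0.28 (quartiles 0.14 to 0.47), against 0.03 for all tested genes. In 90.3% of them the control change was above 0, compared with 53.3% of all tested genes. Without libraries 2 and 4 the median was 0.24, with 87.9% above 0 compared with 49.6% of all. The 1038 genes that fell in exposed livers had a median control change of −0.28 (quartiles −0.43 to −0.14), with 86.1% below 0, and −0.29 with 91.1% below 0 without the pair. These shares changed little when the pair was left out, unlike the number of calls. In the fit of all libraries 113 of the 1191 genes were also called higher in controls and 0 lower, where 2.52% of all tested genes were called higher and 1.05% lower. Of the 1038 genes, 98 were called lower in controls and 24 higher, the latter a share near that over all tested genes. Across all tested genes the Pearson correlation between the exposed and the control change was 0.161 with all libraries and 0.308 without the pair, a description over genes, which are not independent replicates.

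**Figure D4:**
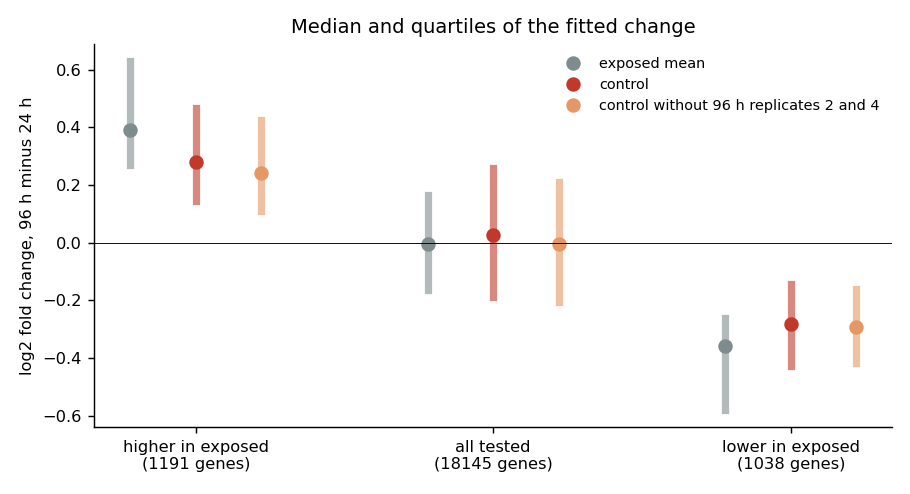
Points are medians and thick bars quartiles of the fitted log2 fold change from 24 h to 96 h for genes called higher in exposed livers, all tested genes, and genes called lower in exposed livers. Control livers (red), with a median of 0.28 in the higher genes and −0.28 in the lower genes, lie on the same side as the exposed mean (grey) and stay there without the 96 h libraries numbered 2 and 4 (orange).

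The same gene sets separated the control libraries one by one. Over the 1191 genes that rose in exposed livers, the median log2 CPM relative to the 24 h control mean ran from 0.13 to 0.43 in the 12 control libraries at 96 h and from −0.11 to 0.08 in the 12 at 24 h. Over the 1038 genes that fell, it ran from −0.42 to −0.18 at 96 h and from −0.10 to 0.19 at 24 h. All 12 libraries at 96 h therefore lay beyond all 12 at 24 h in both sets, with no library left out. Libraries 2 and 4, at 0.30 and 0.36, lay within the range of the other 10 in the first set. In the second set library 2, at −0.36, lay within that range, and library 4, at −0.42, was the lowest of the 12, next to −0.41 in library 5. At 48 h 11 of 12 control libraries were above 0 in the first set and 11 of 12 below 0 in the second, with a lowest value of −0.22 and a highest of 0.29. At 6 h 10 of 12 were above 0 in the first set and 7 of 12 below 0 in the second. The median difference from 24 h in these sets was 0.09 and −0.03 at 6 h, 0.17 and −0.12 at 48 h, and 0.26 and −0.29 at 96 h. Single libraries overlapped across times, and the 48 h library numbered 2, at 0.48 in the first set, was above every library at 96 h.

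**Figure D5:**
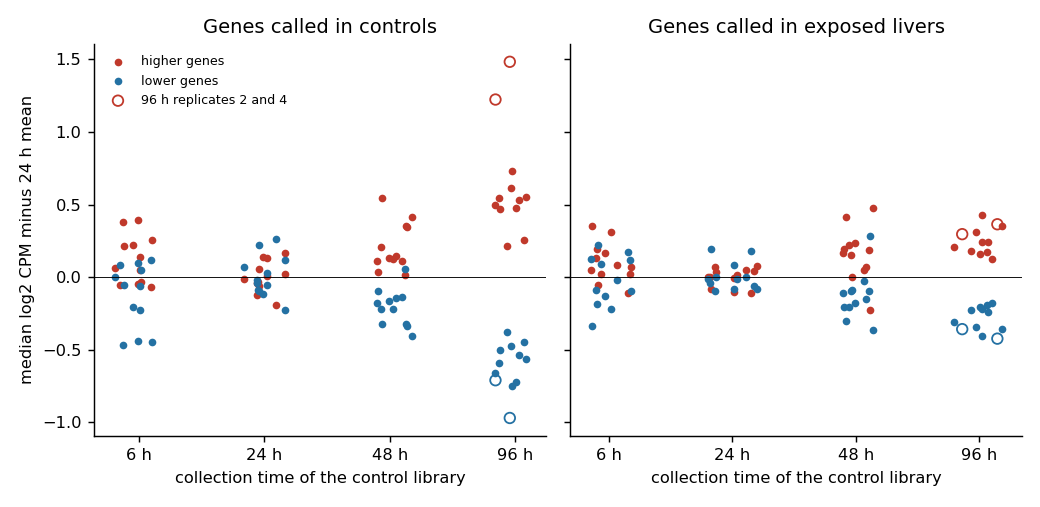
Each point is a control library, and its height is the median over a gene set of log2 CPM minus the 24 h control mean, for higher (red) and lower (blue) genes. On the left, genes called in controls place libraries 2 and 4 (open circles) apart at 1.22 and 1.48 in the higher set. Those genes were called from these same libraries, so the place of libraries 2 and 4 follows in part from that choice. On the right, genes chosen in exposed livers place all 12 libraries at 96 h beyond those at 24 h.

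The genes called in controls were followed in the exposed livers in turn. The 47 fallen genes had a median exposed change of −0.26, with 43 of 47 below 0, and 27 of 47 were called lower there, where 5.72% of tested genes were. By treatment their medians were −0.28 for metformin, −0.15 for guanylurea and −0.36 for the mixture. The 96 risen genes had a median exposed change of 0.21, with 68 of 96 above 0. Of the 96, 30 were called higher in exposed livers, where 6.56% of tested genes were, and 5 were called lower. By treatment their medians were 0.37 for metformin, 0.02 for guanylurea and 0.30 for the mixture. With guanylurea 2 of the 96 were called higher and 16 lower, where 62 and 116 of 18145 tested genes were. Whether single guanylurea libraries carried these calls was not tested. With metformin 5 and with the mixture 20 of the 96 were called higher, where 35 and 468 of all tested genes were, and 0 of the 96 were called lower with either.

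By class of risen genes the counts were as follows, with no test of a difference between classes. Of the 53 genes in which libraries 2 and 4 held 50% of the signal or less, 27 were called higher in exposed livers and 0 lower, with a median change of 0.27, where 6.56% of all tested genes were called higher and 5.72% lower. Of the 17 genes carried by library 2, 0 were called higher and 5 lower, and their median change was −0.63, with −2.13 for guanylurea alone. FMg021418 is among these 17 genes. In guanylurea livers it held 80.0 CPM in a single library at 24 h, while its median went from 0.602 CPM at 24 h to 0.801 CPM at 96 h. Whether single exposed libraries carried the changes of the other genes of this class was not tested. The 21 genes carried by library 4 had a median of 0.18, with 1 called higher, a share near that over all tested genes, and 0 lower.

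Among the named genes, FMg018823 and FMg018629 fell in exposed livers too, by 0.34 (SE 0.0843, edgeR adjusted p = 0.00294) and 0.27 (SE 0.0752, adjusted p = 0.0104) on the log2 scale. FMg021484 rose in them by 0.35 (SE 0.0911, adjusted p = 0.00475). Its exposed medians went from 31.2 to 47.5 CPM for metformin, from 32.9 to 38.7 for guanylurea and from 34.3 to 38.7 for the mixture. These changes were smaller than in controls, but the difference between control and exposed livers did not pass for any of the 3 genes (edgeR adjusted p = 0.425, 0.200 and 0.823). The genes were chosen by small p in controls, a choice that favours larger changes there, so nothing is read from the smaller sizes. FMg021418 did not pass in exposed livers on average, at −0.15 (SE 0.418, adjusted p = 0.862). With guanylurea alone it fell by 3.29 (SE 0.730, adjusted p = 0.00383), where the 24 h group holds the library at 80.0 CPM.

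The change from 24 h to 96 h was also tested for a difference between control and exposed livers. It differed in 165 of 18145 genes (0.909%), of which 158 had the higher change in controls. In these 158 genes the median control change was 2.12 and the median exposed change −0.50. For 146 of the 158, library 2 or 4 was the highest control library at 96 h, compared with 29.6% of all tested genes, and both held a median of 75.5% of the summed CPM of the 12. The 158 genes were called from these same libraries, so these shares are a description. Without libraries 2 and 4 the median control change was 0.20 and 1 gene passed. An unadjusted p under 0.05 was then held by 835 of 18232 tested genes, a share below that cut, compared with 1299 of 18145 with all libraries. With all libraries in place, DESeq2 called 149 genes, of which 136 had the higher change in controls and 124 were among the 165, and limma voom with quality weights called 1 gene.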

How the data were processed

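The deposited tables hold 26150 genes and 47578 transcripts, with 1 column a library. Their values are expected counts, which the authors estimated per feature and deposited as whole numbers (0 values were not whole). The submitters' processing notes name bcl2fastq 1.8.4, Bowtie2 2.3.5 and RSEM 1.3.1. RSEM shares ambiguous reads among features by an estimate, which leaves the counts of close paralogs uncertain. For the genome build, the annotation and the strand setting, the record is "not given in the sources used here". Per the labels' protocols, RNA was isolated with Tri-Reagent and libraries came from a stranded mRNA kit.

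Counts were rounded (no value changed), filtered with filterByExpr (minimum count 10, minimum total 15), scaled by TMM and fitted in edgeR 4.0.16 under R 4.3.3 (robust quasi-likelihood, Benjamini-Hochberg over all genes tested, called at adjusted p under 0.05). Controls at 96 h and 24 h were compared in a fit of the 48 control libraries, and exposed livers and the difference in a fit of all libraries. CPM values are relative to the counts in tested genes after TMM scaling, and log2 CPM used a prior count of 2. Library measures were compared by a two-sided permutation test with 100000 resamples. CPM of named genes, and library medians of genes chosen in exposed livers, come from the fit of all libraries.

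The members, lists and tests were chosen with earlier results of these data known. Named genes were the 2 of smallest p in each direction among genes called both with all libraries and without 96 h libraries 2 and 4, filled up by smallest p where fewer were called in both. Only FMg021484 met both conditions. Alternatives were limma 3.58.1 (voom, quality weights), DESeq2 1.42.0, other scaling, no filter, the transcript table, a replicate block, a threshold of 0.10, other sets of libraries in the fit, and libraries left out. Fits of other tools or library sets without libraries 2 and 4 were added after seeing the data. The edgeR fits of the control and of all libraries, and limma voom and DESeq2 on the controls, were tested on simulated data. No pair of libraries of a group agreed within sampling noise (smallest chi-square per degree of freedom 49.5).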

Additional observations from a re-analysis of the deposited data

Results flagged for a closer look

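The change from 24 h to 96 h came up because the difference between control and exposed livers itself passed a test in part of the genes. Against the mean of the 3 exposed groups 165 genes differed, and against single groups 20 for metformin, 217 for guanylurea and 102 for the mixture (edgeR, Benjamini-Hochberg adjusted p under 0.05). Without the control libraries numbered 2 and 4 at 96 h the same fits called 1, 0, 22 and 9 genes. Of the 18232 genes then tested, 677 had an unadjusted p under 0.05 for metformin, 1191 for guanylurea and 917 for the mixture. For metformin this is a share below that cut. Among the named genes FMg021418 differed, by 6.07 on the log2 scale (SE 0.889, adjusted p = 8.25e-07), and by 0.14 without those libraries (adjusted p = 0.99996).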

How the results depend on the processing

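The count of 143 genes between 24 h and 96 h in controls became 466 at a threshold of 0.10, 649 in 1 fit of all libraries, 358 with DESeq2, 295 with no low-count filter and 19 transcripts in the transcript table. It was 175 with limma voom, 183 in the 24 h and 96 h libraries alone and 143 with DESeq2 size factors. The split of higher and lower calls, 96 and 47, became 75 and 100 with limma voom, and 73 of its 175 genes were among the 143. Without libraries 2 and 4 the count was 3, and 66, 70, 93 and 116 in the fits added after seeing the data (all libraries, limma voom, the 24 h and 96 h libraries, DESeq2). Leaving out 1 library gave 21 to 236. For these counts the cause was not tested.

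With the replicate number as a block edgeR called 0 genes (2288 at an unadjusted p under 0.05), and no other tool was run with the block. Between 24 h and 96 h, 1 of 12 pairs of the same number deviated together at a correlation over 0.1, and 1 of 12 libraries agreed best with its own number. Correlations ran from −0.19 to 0.30 in these pairs and from −0.31 to 0.29 in other pairs. Whether a number marks a shared tank or block is not in the labels and was not tested. The exposed count of 2229 became 3385 at a threshold of 0.10. It lay between 2121 and 2664 under the other alternatives, with 2271 under the block. The difference count of 165 became 149 with DESeq2, 226 at a threshold of 0.10, 313 with no filter, 49 under the block, 1 with limma voom, 1 without libraries 2 and 4 and 1 with both. No library measure passed with or without the pair. For agreement nothing is read from this, since the pair was singled out by that measure.

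FMg018823 and FMg018629 kept their direction in 36 of 36 alternatives and their call in 34. The call was lost without libraries 2 and 4 and under the block (adjusted p = 0.0596 for both). FMg021484 kept its direction in 36 and its call in 23, with adjusted p = 0.0846 under the block. FMg021418 could be tested in 34 alternatives and kept its call in 26. It turned sign in 6: −0.0016 without libraries 2 and 4, −0.034 with DESeq2, −0.0059, −0.14 and −0.0045 without the pair in all libraries, limma voom and DESeq2, and −0.055 without library 2, where the other single libraries left out gave up to 6.12. It fell to 0.39 with limma voom and 0.94 under the block.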

Other observations

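Spread between livers, measured as the SD of log2 CPM, had a median over tested genes of 0.45 at 24 h and 0.50 at 96 h, and of 0.44 at 96 h without libraries 2 and 4. At 6 h and 48 h the medians were 0.53 and 0.52. The SD was larger at 96 h than at 24 h in 59.5% of tested genes, and in 47.1% without the pair. In the 96 risen genes the median SD was 0.48 at 24 h and 1.20 at 96 h, and 0.66 at 96 h without the pair. In the 47 fallen genes it was 0.29 and 0.35, and 0.30 without the pair. The pair was left out for low agreement, and no library was left out at 24 h. A smaller SD without the pair follows in part from that choice. The risen and fallen genes were called from these same libraries, so their SDs are a description.

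Of the 3 genes called without libraries 2 and 4, 2 were not among the 143. One fell by 2.05 on the log2 scale (edgeR adjusted p = 0.00854), from a 24 h median of 4.57 CPM (0.636 to 8.60) to 1.004 CPM (0.639 to 1.53) in the other 10 libraries at 96 h, while libraries 2 and 4 held 9.21 and 7.51 CPM. With all libraries its change was −0.97 (adjusted p = 0.246). The other rose by 2.81 (adjusted p = 0.00854) from a 24 h median of 0.151 CPM (0 to 0.347) to 0.828 CPM (0.313 to 2.33) in the other 10 libraries at 96 h. Library 2, at 0.181 CPM, lay in the 24 h range and library 4, at 0.696 CPM, among the other 96 h libraries, and with all libraries in place it did not pass the low-count filter. Exposed livers showed no call for either, at −0.41 (adjusted p = 0.253) and −0.26 (adjusted p = 0.525).

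Limma voom gave libraries 2 and 4 quality weights of 0.619 and 0.319, the lowest of the 24 libraries at both times. Controls at the other times also held weights below that of library 2. These were 0.447 in the 6 h library numbered 3, and 0.559, 0.444 and 0.354 in the 48 h libraries numbered 2, 6 and 12. TMM factors of the 96 h libraries numbered 2 and 4 were 1.26 and 0.789, and those at 24 h ran from 0.7505 to 1.25.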
